A study of Mus musculus with 22 samples.

Results

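Chromatin accessibility in adipocytes was compared between mice that had eaten a high-fat diet (HFD) for 25 weeks (HH, n = 3) and mice of the same age kept on low-fat chow (CC_l, n = 2). These 5 libraries were taken by their labels from the 22 ATAC–seq libraries of the series, and the other 17 belong to other diets, durations and ages. All mice were males of the cross AdipoERCre x NuTRAP, which the labels place on a C576BL6 background, and HH and CC_l mice were 31 weeks old. Controls and HFD mice alike carried both transgenes and received tamoxifen before the diets began. The Cre recombinase of this cross is driven by the adiponectin promoter and works only in the presence of tamoxifen. It switches on a reporter that puts biotin on nuclei and GFP on ribosomes, so that adipocyte nuclei could be pulled out of frozen epididymal fat. Adipocytes that matured after the tamoxifen had washed out carry no such label, so the pull-down was aimed at adipocytes that existed before the HFD. Each library came from 1 animal. As a second set of animals, mice fed HFD for 12 weeks (H, n = 3) and their chow controls (C, n = 3), both 18 weeks old, were compared in the same way and share no library with HH or CC_l.

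ATAC–seq uses a transposase that inserts into DNA where nucleosomes leave it exposed, so promoters and enhancers in use give more fragments than closed chromatin. White adipocytes store triglyceride, take up glucose under insulin and secrete adipokines such as adiponectin, leptin and adipsin. Their open chromatin is set by PPARγ and C/EBP factors, with the glucocorticoid receptor as a hormone-driven partner during differentiation. AP-1 factors (Fos and Jun proteins) are induced by stress, stretch and growth factors. On an HFD adipocytes grow in size, and the cytoskeleton and the matrix around them are remodelled.

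Accessibility was read from peak lists. Peaks of all libraries that overlapped were merged into regions, and the total signal of a region in a library is the coverage summed over that library's peaks within it. To put the libraries on 1 scale, their regions were ranked and each rank was given the mean log2 total signal at that rank over all libraries. Regions below the last shared rank sit at a floor of 14.01. A difference of 1 on this scale is a doubling of rank-mapped total signal. The regions that separated the diets most clearly were long. Below are 300 bases of GRCm38, plus strand, around the highest coverage of the first 3 named regions in each direction, shown because these come first by p among the named regions. Capitals mark a match to 1 of 8 motifs of adipose transcription factors, which are spelled out with the motif counts. The windows lie in an intron of Pdlim1 (chr19:40231406-40231705), just upstream of the gene Stambpl1 (chr19:34187967-34188266) and in an intron of Iqgap1 (chr7:80786722-80787021), all higher in HH. The other 3 lie in an intron of Arhgap10 (chr8:77490512-77490811) and at 2 places in introns of Slit3 (chr11:35604761-35605060 and chr11:35626304-35626603), all lower in HH.
Pdlim1: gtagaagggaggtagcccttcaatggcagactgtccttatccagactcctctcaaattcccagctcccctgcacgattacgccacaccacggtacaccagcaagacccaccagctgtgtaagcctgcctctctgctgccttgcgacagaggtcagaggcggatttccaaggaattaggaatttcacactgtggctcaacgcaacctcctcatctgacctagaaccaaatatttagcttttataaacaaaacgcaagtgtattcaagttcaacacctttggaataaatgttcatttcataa
Stambpl1: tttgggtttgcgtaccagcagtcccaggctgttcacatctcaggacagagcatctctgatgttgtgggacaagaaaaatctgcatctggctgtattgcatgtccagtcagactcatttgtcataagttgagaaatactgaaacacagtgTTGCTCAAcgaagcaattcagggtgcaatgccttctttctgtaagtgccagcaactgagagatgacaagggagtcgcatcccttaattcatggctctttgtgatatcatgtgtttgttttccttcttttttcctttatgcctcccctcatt
Iqgap1: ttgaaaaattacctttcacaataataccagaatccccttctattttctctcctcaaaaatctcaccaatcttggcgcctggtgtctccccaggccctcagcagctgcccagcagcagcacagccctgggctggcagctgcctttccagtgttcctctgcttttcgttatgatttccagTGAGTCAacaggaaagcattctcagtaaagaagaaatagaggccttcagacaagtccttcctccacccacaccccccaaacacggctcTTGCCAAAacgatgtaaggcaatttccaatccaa
Arhgap10: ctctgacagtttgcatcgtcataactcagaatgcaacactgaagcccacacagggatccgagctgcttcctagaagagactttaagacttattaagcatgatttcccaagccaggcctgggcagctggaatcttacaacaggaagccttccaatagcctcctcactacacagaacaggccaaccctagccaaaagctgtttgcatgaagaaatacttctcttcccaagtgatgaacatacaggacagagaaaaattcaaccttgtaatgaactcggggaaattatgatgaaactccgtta
Slit3, first region: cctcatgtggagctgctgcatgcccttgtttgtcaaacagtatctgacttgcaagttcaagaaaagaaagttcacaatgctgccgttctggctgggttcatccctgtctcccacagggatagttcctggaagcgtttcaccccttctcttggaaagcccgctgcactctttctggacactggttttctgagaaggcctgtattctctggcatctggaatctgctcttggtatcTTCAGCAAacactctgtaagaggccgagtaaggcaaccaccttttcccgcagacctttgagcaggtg
Slit3, second region: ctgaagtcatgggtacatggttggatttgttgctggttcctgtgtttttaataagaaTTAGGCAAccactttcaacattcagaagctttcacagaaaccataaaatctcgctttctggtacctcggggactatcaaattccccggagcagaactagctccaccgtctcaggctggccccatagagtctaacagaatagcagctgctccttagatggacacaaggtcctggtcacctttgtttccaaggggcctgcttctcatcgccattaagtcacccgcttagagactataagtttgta
The capitals in Stambpl1 and in both Slit3 windows are C/EBP matches at bases 150, 234 and 58 of the window, and those in Iqgap1 are an AP-1 match at base 179 and a C/EBP match at base 267. The windows of Pdlim1 and Arhgap10 hold no match to any of the 8 motifs.

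The 5 lists held between 48561 and 57641 nuclear peaks and covered between 132 and 216 Mb. The lists give no read counts, so sequencing depth is unknown and no counting interval can be given. None of 8 library measures separated the diets (two-sided exact permutation tests, smallest p = 0.6, where 0.1 is the smallest that 3 against 2 libraries allow). All 12 adipocyte markers, among them Adipoq, Pparg and Plin1, had a promoter peak in each library.

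HH 1 stood apart from the other 4 libraries. Its median maximum signal of 30.0 per peak was the lowest of the 5, its mitochondrial peak took 5.39% of all peak signal against 0.610% to 1.49% in the others, and its correlation with HH 2 and HH 3 across regions (r = 0.865 and 0.844) was no higher than that of HH 2 with CC_l 1 (r = 0.898). It also carried signal of blood vessel cells. Of 12 endothelial markers, all 12 had a promoter peak in HH 1, against 2 in HH 2, 1 in HH 3, 1 in CC_l 1 and 1 in CC_l 2. The promoter of Cdh5, the cadherin of endothelial junctions, was at 16.80 in HH 1 and at the promoter floor of 14.19 in the other 4, and that of Erg, an endothelial transcription factor, was at 17.80 and otherwise at the floor. Cldn5 alone among the 12 had a peak in every library (17.80 in HH 1 and 14.93 to 15.68 in the others). The mean promoter level of the list was 16.17 in HH 1 and between 14.25 and 14.31 elsewhere. The part of this signal in the results was not tested by a model. The regions named by smallest p among those with a peak in all 5 libraries had to pass with and without that library. Regions named because they were called in 1 group only, and list members, had no such condition.

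**Figure D1:**
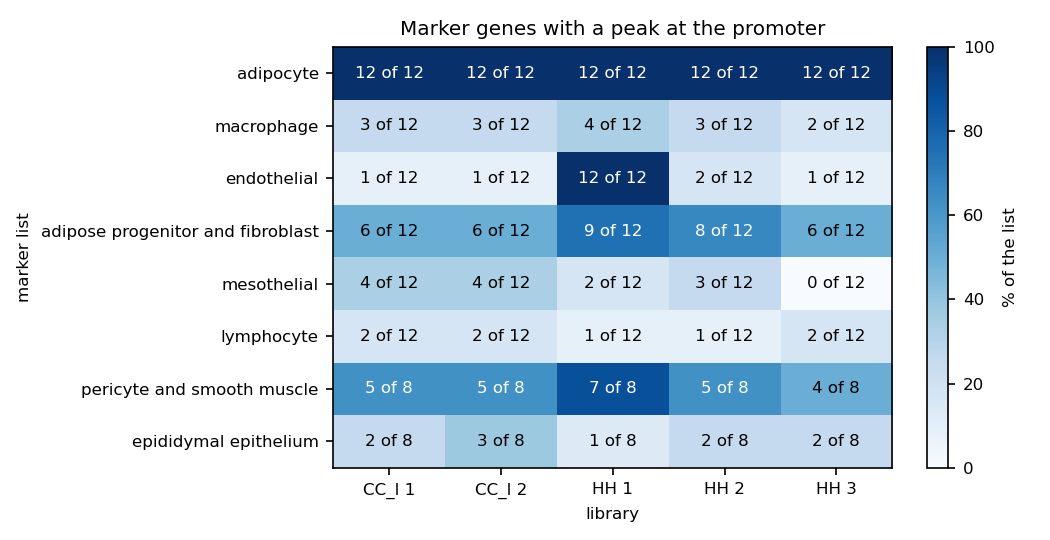
Number of marker genes with a peak within 2000 bp of a transcription start site, by marker list (rows) and library (columns), with the shade giving the share of the list in percent. All 12 adipocyte markers have a peak in every library, and all 12 endothelial markers have one in HH 1 against 1 or 2 in the other 4 libraries.

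The other marker lists differed less between libraries. Of 12 macrophage markers, between 2 and 4 had a promoter peak in a library, their mean promoter level ranged from 14.66 to 14.73 in HH and from 14.47 to 14.66 in CC_l, and Itgam, Ptprc, Mrc1, C1qa, Fcgr1 and Lyve1 had no peak in any of the 5. Of 12 progenitor and fibroblast markers, between 6 and 9 had a peak in HH libraries and 6 in each CC_l library, with mean levels of 15.17 to 15.78 in HH and 14.97 to 15.11 in CC_l. The highest values were those of HH 1 (9 markers, 15.78), against 8 and 15.22 in HH 2 and 6 and 15.17 in HH 3. Pericyte and smooth muscle markers gave 4 to 7 of 8 in HH and 5 in each CC_l library, at 14.99 to 15.49 against 14.87 to 14.97. The 7 came from HH 1 and the 15.49 from HH 3. Of 12 mesothelial markers, 8 had no peak in any library, Msln, Upk3b and Krt19 among them, and the list's level was 14.19 to 14.23 in HH and 14.29 to 14.58 in CC_l. Its member Wt1 passed the nominal threshold, lower in HH (14.35, 14.19 and 14.19 in HH against 15.75 and 15.23 in CC_l, difference -1.25, SE 0.24, adjusted p = 0.303, limma). The 4 distal regions linked to the list ran the other way, all above 0 with a median difference of 0.73 (0.90 over 3 regions without HH 1). For lymphocyte markers 8 of 12, Cd3e and Cd4 among them, had no peak in any library, with levels of 14.22 to 14.33 and 14.29 to 14.48. For epididymal epithelium 5 of 8 had none, with levels of 14.45 to 14.61 and 14.56 to 14.60. What these small differences in other cells contribute to the results was not tested, and fewer cells of a type and less signal per cell cannot be told apart in such bulk libraries.

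To find which regions changed, 33619 regions above the floor in at least 2 of the 5 libraries were fitted with limma. No region passed an adjusted p of 0.05 (0 of 33619, smallest adjusted p = 0.162, limma with Benjamini–Hochberg adjustment), while 4604 had an unadjusted p under 0.05. The counts below therefore use a nominal threshold, an unadjusted p under 0.01 with a log2 difference above 1 in size, which is the cut-off the study's methods give for promoters. At this threshold 456 regions were higher in HH (1.36% of those tested) and 446 were lower (1.33%). With p-values spread evenly, 336 regions would lie under 0.01 whatever their difference, and 1579 did. Without HH 1 the same fit gave 954 higher (2.98%) and 587 lower (1.83%) regions of 31997 tested, again with 0 past the adjusted threshold. Of the regions counted with all 5 libraries, 400 higher and 360 lower ones also passed without HH 1. Without HH 2 the counts were 347 higher and 338 lower, and without HH 3 they were 370 and 410. Leaving out CC_l 1 or CC_l 2 leaves 1 chow animal, so counts from such fits cannot show whether the result rests more on the chow animals. The balance between the directions rested on the scale. It was 456 to 446 after rank mapping, 1292 to 442 after centring each library on its median, which moved the median difference over all regions from -0.03 to 0.13, and 292 to 626 with maximum in place of total signal.

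The 456 higher regions had a median difference of 1.47 in total signal and 0.82 in maximum signal, and the 446 lower regions of -1.34 and -0.98. As the regions were chosen by total signal, the smaller values in maximum signal do not show that breadth changed more than height. With maximum signal 442 of the 456 higher regions kept their direction, of which 93 passed the threshold, and 433 of the 439 lower regions that could be tested kept theirs, of which 127 passed. The regions were wide, with a median of 10400 bp (higher) and 9247 bp (lower) against 7006 bp over all regions tested. Of the higher regions 35.1% touched a promoter, of the lower regions 31.8%, and of all regions tested 43.3%. The nominal threshold was passed by 1.55% of distal regions in the higher and 1.59% in the lower direction, and by 1.10% and 0.976% of promoter regions.

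Among regions with a peak in all 5 libraries that passed with and without HH 1 (237 higher and 133 lower), those with the smallest p are named here, 9 higher and 10 lower. All 19 had the same adjusted p of 0.162 (limma), while after median centring each of them passed the adjusted threshold (adjusted p from 0.0124 to 0.0478). Pdlim1 encodes a PDZ and LIM domain protein that binds actinin on stress fibres. Its region (chr19:40220851-40259435) was at 17.67, 17.29 and 17.69 in HH 1, 2 and 3 and at 14.58 and 14.90 in CC_l 1 and 2, a difference of 2.81 (SE 0.23). Peaks covered between 12621 and 16677 bp of it in HH and 1342 and 4252 bp in CC_l. The highest coverage lies in the intron whose sequence is printed above. All HH libraries lay above both CC_l libraries. The groups did not overlap in any of the 19 named regions, which the choice by p fixes, as they did not in any of the 456 higher and 446 lower regions, against 32.6% of all regions tested.

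Stambpl1, which encodes a deubiquitinase of the endosome, had a region over its promoter (chr19:34185785-34200487) at 17.32, 17.28 and 17.22 in HH against 14.98 and 15.14 in CC_l, a difference of 2.21 (SE 0.19). Iqgap1 encodes a scaffold protein that binds actin. Its intronic region (chr7:80772413-80792748) was at 17.00, 17.01 and 16.82 in HH and at 14.47 and 14.63 in CC_l, a difference of 2.39 (SE 0.23). An intergenic region 27672 bp from Dennd4c (chr4:86708733-86720882), the exchange factor for the Rab GTPase that brings the insulin-responsive glucose transporter to the surface, was at 16.96, 16.86 and 16.87 in HH and at 14.32 and 14.60 in CC_l, a difference of 2.44 (SE 0.24). These 3 regions had CC_l levels from 14.32 to 15.14, near the floor, and HH levels from 16.82 to 17.32.

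Another 4 regions already held more signal on chow. Sh3pxd2b, a scaffold of podosomes, stood at 18.56, 18.67 and 18.77 in HH against 17.22 and 16.90 in CC_l (difference 1.60, SE 0.16). Nek6, a mitotic kinase, stood at 18.83, 18.81 and 18.92 against 17.26 and 17.58 (difference 1.44, SE 0.15). Stim2, the calcium sensor of the endoplasmic reticulum, stood at 17.66, 17.75 and 17.86 against 16.25 and 16.31 (difference 1.48, SE 0.16). Nek6 and Stim2 had their highest coverage at a promoter. A region 15651 bp from Tbc1d19 differed by 1.37 (SE 0.15) in total signal, but by -0.04 in maximum signal. It lies at chr5:53919617-53951278, close to the Stim2 region (chr5:53990483-54016244), and whether these neighbours are independent was not tested. An intronic region of Atp8a1, a flippase that moves phospholipids across membranes, differed by 2.37 (SE 0.26). With maximum signal no region of the 9 kept the nominal threshold, and their differences ran from -0.04 at Tbc1d19 to 1.10 near Dennd4c.

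The regions lower in HH began with Arhgap10, a GTPase-activating protein gene, and by Slit3, a secreted ligand of Robo receptors. The region in Arhgap10 (chr8:77471853-77493762) was at 15.59, 15.22 and 15.82 in HH and at 17.62 and 18.01 in CC_l, a difference of -2.27 (SE 0.26). Peaks covered 3019 to 5470 bp of it in HH and 13591 and 20223 bp in CC_l. The first region in Slit3 (chr11:35599415-35613555) was at 14.67, 14.15 and 14.81 in HH and at 17.12 and 17.44 in CC_l, a difference of -2.73 (SE 0.32). The second (chr11:35614149-35641882), which takes in the promoter of the microRNA gene Mir218-2 inside Slit3, was at 16.47, 15.90 and 16.34 against 18.03 and 18.10, a difference of -1.83 (SE 0.22). The 2 Slit3 regions lie next to each other and are not independent.

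Adcyap1r1, the receptor for the neuropeptide PACAP, had an intronic and promoter region at 18.08, 17.51 and 17.74 in HH and at 19.15 and 19.16 in CC_l, a difference of -1.38 (SE 0.19). Gulp1, an adaptor for the engulfment of dying cells, had a region at 15.77, 15.64 and 16.10 in HH and at 17.36 and 17.98 in CC_l, a difference of -1.84 (SE 0.27). An intergenic region 36084 bp from Isg20, an interferon-induced exonuclease, stood almost at the floor in HH (14.01, 14.08 and 14.27 in HH against 17.03 and 16.54, difference -2.67, SE 0.34). One 38842 bp from Impad1, a phosphatase of the Golgi, differed by -2.29 (SE 0.30). The remaining 3 regions span several genes each. They were Mrps18a with Rsph9 and Mad2l1bp (difference -1.04, SE 0.14), Phf20 with Scand1 and Cnbd2 (-1.03, SE 0.14) and Gfod2 with Ranbp10 (-1.47, SE 0.22). With maximum signal the first region in Slit3 (-1.44) and Arhgap10 (-1.14) passed the nominal threshold, and all 10 kept their direction.

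**Figure D2:**
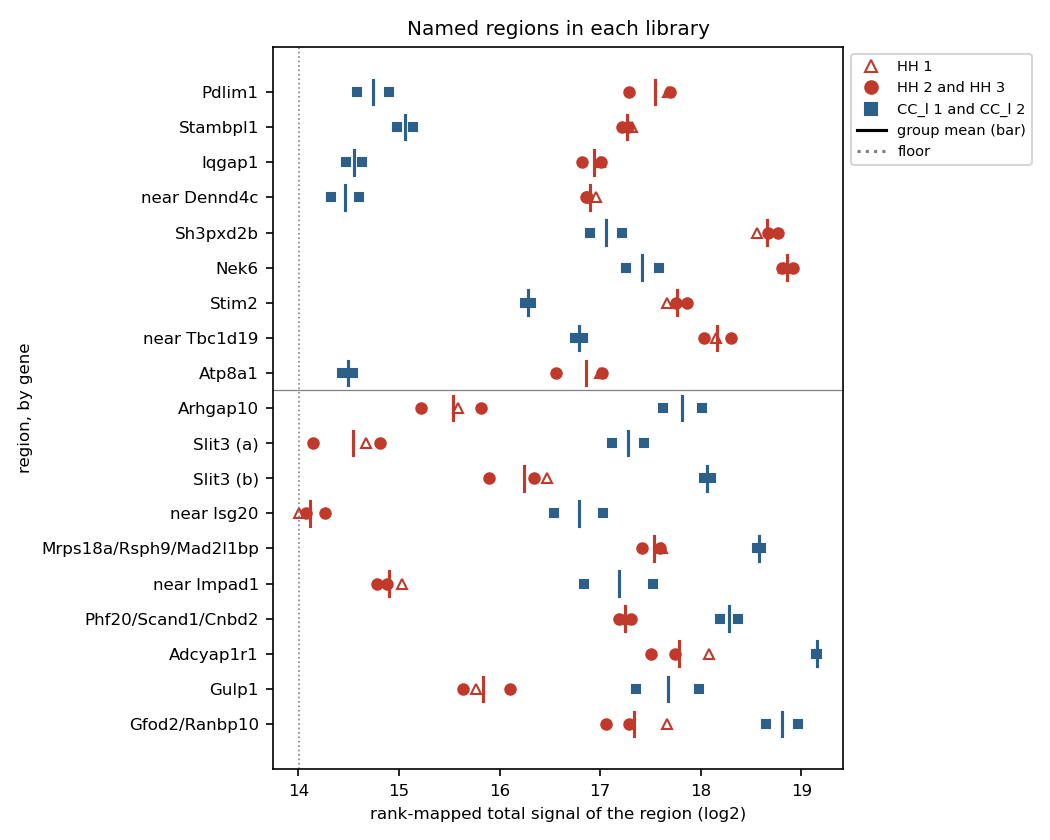
Rank-mapped log2 total signal of the 19 named regions in each library (points; HH 1 as an open triangle, HH 2 and HH 3 as circles, CC_l as squares), with bars for the group means and a dotted line for the floor of 14.01. The upper 9 regions are higher and the lower 10 lower in HH, as their choice by p fixes, and HH 1 is drawn apart from HH 2 and HH 3 by its symbol.

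Some regions had a peak in 1 group only. Of 53604 regions with a peak in any of the 5 libraries, 1029 (1.92%) had one in all HH and no CC_l libraries, and 1502 (2.80%) in all CC_l and no HH libraries. The groups differ in size, so the 2 counts are not on equal terms. Without HH 1 the counts were 2561 and 2068, without HH 3 the first was 1564 and without HH 2 the second was 2261. Without CC_l 1 they were 1389 and 3888, and without CC_l 2 they were 1961 and 4121. Such regions were shorter (median 4673 bp and 4085 bp) and fewer of them touched a promoter (15.2% and 20.8% against 33.3% of all regions with a peak).

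The strongest regions called only in HH lay 22965 bp from Zfp184, a zinc finger gene (16.26, 16.65 and 17.49 in HH), and in introns of Tmem132b (16.49, 16.68 and 16.92), a transmembrane protein gene, and of D16Ertd472e (16.16, 16.74 and 16.34). Others lay in Cmss1 and Filip1l (17.28, 15.75 and 16.10), 21302 bp from Nbea, a vesicle traffic protein gene (16.45, 15.84 and 16.68), and in Prkch, a protein kinase C gene (16.83, 16.37 and 15.67). All 6 were listed without a peak in both CC_l libraries, so no fold is given. The strongest regions called only in CC_l lay in Ak9, an adenylate kinase gene (15.83 and 16.30 in CC_l), in Lama1, which encodes a laminin chain (16.17 and 15.77), and in Adamtsl1, a matrix protein gene (15.86 ± 0.20, SD, n = 2). The others were 2 regions 196518 and 157691 bp from the potassium channel gene Kcnj2, the first of them over the promoter of Gm11675 (15.62 and 16.47, and 15.50 and 16.41), and 1 that lay 150866 bp from Cd180 (15.97 and 15.89).

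Next it was asked whether the same regions differed after 12 weeks of HFD, in animals that share no library with HH and CC_l. Of the 456 regions higher in HH, 444 were tested between H and C, and 436 of them (98.2%) were higher in H. Of these 444, 296 (66.7%) passed the nominal threshold in the higher direction against 5.04% of the 30840 regions tested there, and 0 passed it in the lower direction. Of the 446 lower regions, 422 were tested, 403 (95.5%) were lower in H, and 162 (38.4%) passed in the lower direction against 3.49% of all regions, with 0 in the higher. For comparison, among the 29010 regions tested in both, 72.7% had the same direction and H was above C in 45.8%. The median difference of the higher regions was 1.47 at 25 weeks and 1.36 at 12 weeks, and that of the lower regions with values at both was -1.36 and -0.96. Since the members were picked for large differences at 25 weeks, a smaller value at 12 weeks does not show a growing effect.

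Pdlim1 differed by 3.20 (SE 0.37, adjusted p = 0.00456, limma) between H and C, Atp8a1 by 2.65 (SE 0.27, adjusted p = 0.00378) and Stambpl1 by 1.97 (SE 0.31, adjusted p = 0.00925). Iqgap1 had a difference of 1.18 (SE 0.44, adjusted p = 0.101) at 12 weeks, which did not pass. Among the lower regions Arhgap10 differed by -1.62 (SE 0.35, adjusted p = 0.0213) and the first Slit3 region by -2.04 (SE 0.58, adjusted p = 0.0483), while Impad1 (-1.05, adjusted p = 0.262) and Gulp1 (-1.49, adjusted p = 0.179) did not pass. All 19 named regions had the same direction at both times. Of the 6 named regions called only in HH, the one in Cmss1 and Filip1l had peaks in all H and all C libraries and a difference of -0.06 (SE 0.40, adjusted p = 0.931) there. A test of the difference between the diet effects at 25 and 12 weeks called 0 of 41045 regions (interaction term, limma, smallest adjusted p = 0.419), and 2216 (5.40%) had an unadjusted p under 0.05. Regions called in 1 group only behaved alike. Of the 1029 called only in HH, 58.9% had a peak in some H library and in no C library and 1.46% the reverse, against 10.4% and 9.63% of all regions with a peak. Of the 1502 called only in CC_l, 52.1% had a peak in C and not in H, and 3.26% the reverse.

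**Figure D3:**
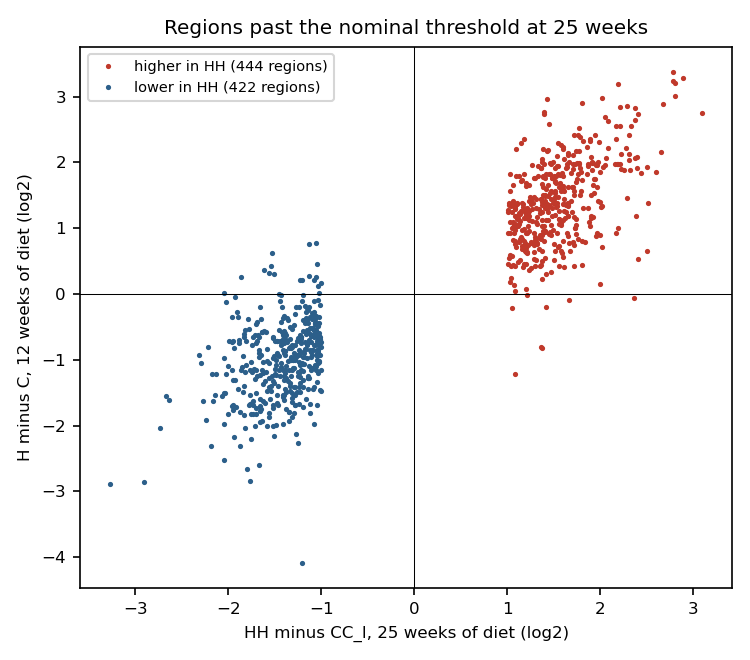
Difference between HH and CC_l after 25 weeks of HFD (x axis) and between H and C after 12 weeks (y axis), both in log2 rank-mapped total signal, for each region past the nominal threshold at 25 weeks that was tested at 12 weeks. Of the 444 higher regions (red) 436 lie above 0 on the y axis, and of the 422 lower regions (blue) 403 lie below it.

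The sequence around the highest coverage of the distal regions was then searched for motifs on both strands, in windows of 300 bases. The 296 higher windows, the 304 lower windows and the 19051 windows of all distal regions tested had median GC contents of 47.3%, 47.7% and 47.3%. AP-1 (TGANTCA) was found in 22.3% of the higher windows (66 of 296), 13.6% of all windows and 11.2% of the lower windows (34 of 304). The glucocorticoid receptor motif (GNACANNNTGTNC) was found in 5.92% of the lower windows (18 of 304), 1.85% of all windows and 0.676% of the higher windows (2 of 296). C/EBP (TTGCNNAA) was found in 30.1% of the higher, 28.0% of all and 22.7% of the lower windows. The shares are descriptions with no test. Windows of higher regions were centred on HH coverage and windows of lower regions on CC_l coverage. Among all distal regions AP-1 was found in 16.8% of those with the higher mean in HH and 10.6% of those with the higher mean in CC_l, and the glucocorticoid receptor motif in 1.28% and 2.4%.

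Without HH 1 the shares kept their order, with AP-1 in 21.2% of higher and 10.3% of lower windows and the glucocorticoid receptor motif in 1.34% and 5.31%. With maximum signal they were 28.1% and 8.29% for AP-1, and 0.446% and 4.39% for the glucocorticoid receptor. In the regions that differed between H and C, AP-1 was found in 17.7% of the higher and 12.2% of the lower windows, and the glucocorticoid receptor motif in 1.69% and 2.27%, against 13.5% and 1.78% of all windows tested there. The other motifs lay near their share in all windows. RUNX (TGTGGTT) was in 5.41% of higher, 6.25% of lower and 6.89% of all windows, and PU.1 (GAGGAAGT) in 2.03%, 1.64% and 2.01%. EBF (TCCCNNGGGA) was in 1.01%, 1.64% and 1.56%, the PPAR–RXR direct repeat (AGGNCANAGGNCA) in 0.676%, 0.987% and 0.850%, and NF1 (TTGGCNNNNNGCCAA) in 0%, 0% and 0.0682%. For the last, 0 of 296 and 0 of 304 windows held the letters. These are short patterns, some of which overlap, and a match does not show that a factor binds.

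**Figure D4:**
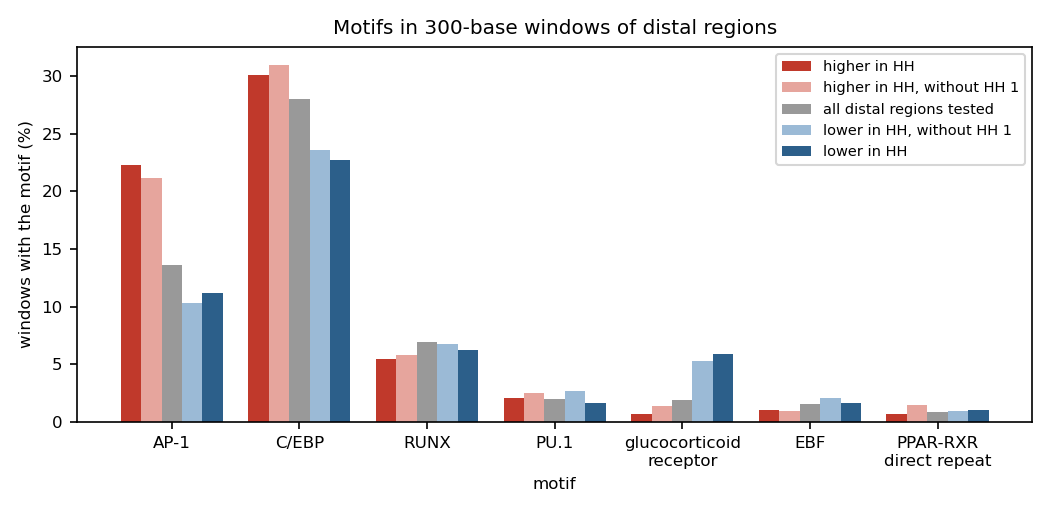
Share of 300-base windows of distal regions that hold a motif on either strand, in percent, for regions higher in HH, lower in HH and all tested, with the calls made with and without HH 1. AP-1 has 22.3% in higher, 13.6% in all and 11.2% in lower regions, and the glucocorticoid receptor motif has 0.676%, 1.85% and 5.92%.

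Windows that carry these motifs are printed as examples, chosen after their values were seen by the smallest p with and without HH 1. Beside the Iqgap1 window above, the AP-1 windows lie 27672 bp from Dennd4c (chr4:86712838-86713137) and in an intron of Tram2 (chr1:21014519-21014818). The glucocorticoid receptor windows are intronic and come from Adamtsl1 (chr4:86288385-86288684), Babam2 (chr5:31771926-31772225) and Mtmr14 (chr6:113250983-113251282), all on GRCm38, plus strand, with matches in capitals.
Dennd4c: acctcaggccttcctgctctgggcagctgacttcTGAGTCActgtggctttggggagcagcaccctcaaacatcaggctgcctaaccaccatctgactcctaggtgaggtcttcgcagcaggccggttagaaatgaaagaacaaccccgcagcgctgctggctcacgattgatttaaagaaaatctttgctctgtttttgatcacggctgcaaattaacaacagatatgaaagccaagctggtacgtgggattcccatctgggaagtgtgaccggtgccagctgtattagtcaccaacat
Tram2: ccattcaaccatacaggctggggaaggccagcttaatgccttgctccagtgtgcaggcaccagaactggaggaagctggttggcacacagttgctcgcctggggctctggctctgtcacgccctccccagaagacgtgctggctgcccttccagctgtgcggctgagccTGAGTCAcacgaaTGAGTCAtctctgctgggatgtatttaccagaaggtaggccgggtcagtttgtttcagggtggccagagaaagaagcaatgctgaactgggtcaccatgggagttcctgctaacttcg
Adamtsl1: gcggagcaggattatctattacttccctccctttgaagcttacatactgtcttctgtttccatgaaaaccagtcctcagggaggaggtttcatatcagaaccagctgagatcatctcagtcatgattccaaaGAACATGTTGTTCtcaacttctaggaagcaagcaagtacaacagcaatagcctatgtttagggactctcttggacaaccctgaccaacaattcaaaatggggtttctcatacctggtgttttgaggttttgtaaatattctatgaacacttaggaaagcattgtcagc
Babam2: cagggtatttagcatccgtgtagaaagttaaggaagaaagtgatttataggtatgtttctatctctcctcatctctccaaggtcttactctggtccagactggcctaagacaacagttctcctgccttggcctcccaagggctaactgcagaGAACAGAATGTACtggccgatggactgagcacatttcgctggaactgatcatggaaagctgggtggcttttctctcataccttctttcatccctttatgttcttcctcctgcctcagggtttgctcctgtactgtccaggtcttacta
Mtmr14: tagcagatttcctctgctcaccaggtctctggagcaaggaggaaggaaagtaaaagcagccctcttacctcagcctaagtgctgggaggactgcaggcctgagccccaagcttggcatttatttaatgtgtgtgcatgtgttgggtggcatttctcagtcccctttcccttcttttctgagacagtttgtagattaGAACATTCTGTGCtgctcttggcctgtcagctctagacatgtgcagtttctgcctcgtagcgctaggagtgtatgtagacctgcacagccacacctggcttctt
The Dennd4c window has AP-1 at base 35, and the Tram2 window has it at bases 170 and 183. Tram2, which encodes a protein of the translocon used in collagen synthesis, was at 18.07, 18.13 and 18.29 in HH and at 16.95 and 16.99 in CC_l (difference 1.19, SE 0.14, adjusted p = 0.162, limma). The glucocorticoid receptor matches start at bases 133, 153 and 197. The Adamtsl1 region is the one listed above without a peak in HH. Babam2, a subunit of a deubiquitinase complex, was at 14.20, 14.04 and 14.01 in HH and at 15.78 and 16.17 in CC_l (difference -1.89, SE 0.31, adjusted p = 0.162, limma). Mtmr14, a phosphoinositide phosphatase, was at the floor in each HH library and at 15.30 and 15.35 in CC_l.

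Promoters were compared as well, with the signal of every peak that touches a window of 2000 bp on each side of a gene's start sites. Of 20857 promoters tested, 173 (0.829%) passed the nominal threshold higher in HH and 219 (1.05%) lower, and 23 (0.110%) passed an adjusted p of 0.05 with limma, 22 lower and 1 higher. These 23 lie over 16 regions, 11 are of protein-coding genes, and in 11 all HH libraries were at the promoter floor. The count of 23 became 50 without HH 1 and 0 when any 1 of the other 4 libraries was left out. Nominal calls without CC_l 2 were 97 higher and 125 lower, those without CC_l 1 were 49 and 220, and those without HH 1 were 446 and 275. By this measure a long peak gives its whole signal to each promoter it touches, so promoter values follow where peaks end. When each peak counted only by the share of its length inside the promoter, an alternative added after seeing the data, 0 passed the adjusted threshold (limma), 1550 had an unadjusted p under 0.05, and 10 of the 23 passed the nominal one in the same direction. With maximum signal 20 of the 23 passed the nominal threshold, and without HH 1 20 of them passed the adjusted one. The cause of these changes was not tested.

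The locus of Cfd, which encodes the adipokine adipsin (complement factor D), is an example of such a long peak. Its promoter was at 17.58, 17.66 and 17.43 in HH and at 20.64 and 20.60 in CC_l (difference -3.06, SE 0.22, adjusted p = 0.0259, limma). In CC_l 1 and 2 the promoter lay under 1 peak of 47015 and 65601 bp with a maximum of 195 and 353, and in HH 1, 2 and 3 under a peak of 8170, 11585 and 12694 bp with a maximum of 45, 119 and 66. Beside it the HH libraries had several separate peaks. The region as a whole (129592 bp) differed by -0.87 (SE 0.15), Cfd with the share of the peak inside the promoter by -0.86, and its maximum signal by -1.38. R3hdm4, Kiss1r (the kisspeptin receptor), Med16 (a Mediator subunit), Gm24019 and Gm26602 take their values from the same CC_l peaks as Cfd, with differences from -4.50 to -3.48, and Prtn3 (a neutrophil protease, -2.32, adjusted p = 0.0872) does so too. They are 1 observation, not several.

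**Figure D5:**
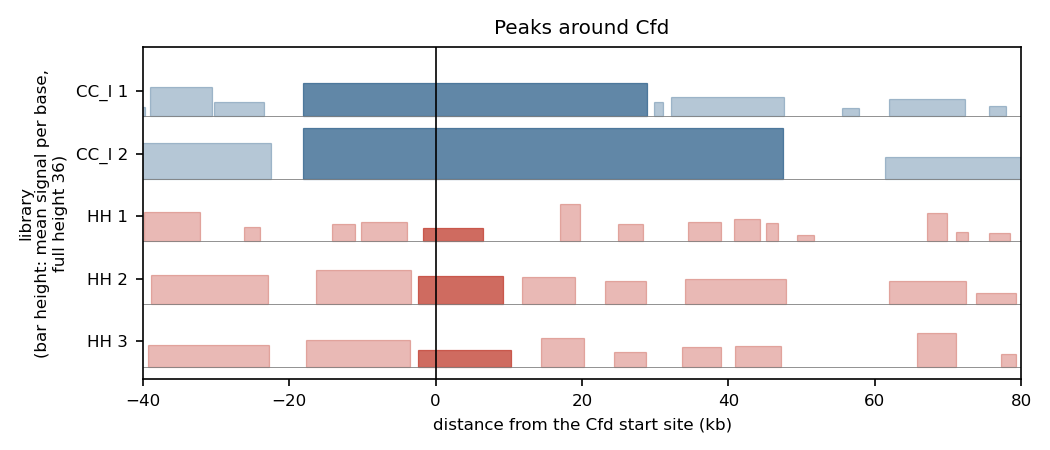
Peaks around the Cfd start site in each library, drawn by distance from the start site in kb (x axis), with bar height as mean signal per base on 1 common scale that is not adjusted between libraries, and darker bars for the peak over the promoter. In CC_l 1 peak of 47015 or 65601 bp spans the promoter, and in HH that peak is 8170 to 12694 bp long with separate peaks beside it.

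Among protein-coding promoters with a peak in all 5 libraries that passed with and without HH 1, the 8 with the smallest p that were higher in HH had adjusted p from 0.0872 to 0.205. Rnf135, a ubiquitin ligase of RNA sensing, was at 18.19, 18.31 and 18.71 in HH and at 15.70 and 15.76 in CC_l (difference 2.67, SE 0.27), and differed by 0.28 with the share of the peak inside the promoter. Pmepa1, a TGFβ-induced inhibitor of that pathway, was at 20.37, 20.31 and 20.63 against 18.35 and 18.28 (2.12, SE 0.22), and its difference was -0.01 with the share of the peak. Stambpl1 was at 17.24, 17.33 and 17.45 against 15.07 and 14.51 (2.55, SE 0.28), and differed by 1.19 with the share. Pcgf5, a Polycomb subunit, was at 17.42, 17.46 and 17.40 against 15.50 and 15.53 (1.91, SE 0.23), and differed by 1.06 with the share. Slc12a8, Plekha7 (a protein of adherens junctions), Cdkl4 and Pcdh1 (a protocadherin) had differences of 1.86, 1.89, 2.25 and 2.11, and of 2.83, 1.18, 2.94 and 1.28 with the share of the peak. So 6 of these 8 promoters, all but Rnf135 and Pmepa1, passed the nominal threshold with the share of the peak, while with maximum signal only Stambpl1 (1.38) and Cdkl4 (1.29) did, and the other 6 had differences from 0.26 to 0.87.

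Among the 8 lower promoters, R3hdm4, Kiss1r, Med16, Gm26602, Cfd and Prtn3 belong to the locus just described. Cend1 was at 18.10, 17.69 and 18.03 in HH and at 20.84 and 20.50 in CC_l (difference -2.73, SE 0.26, adjusted p = 0.0722, limma), but differed by -0.90 with the share of the peak, -0.82 with maximum signal and -0.48 over its region, and passed the nominal threshold in none of these. Gpbar1, the membrane receptor for bile acids, was at 14.19, 14.66 and 15.43 in HH and at 18.65 and 19.10 in CC_l (difference -4.11, SE 0.43, adjusted p = 0.0896, limma), and differed by -3.13 (adjusted p = 0.0457) with maximum signal and by -1.46 with the share of the peak, while the region around it differed by -0.04 (SE 0.13). At 12 weeks the Gpbar1 promoter had the opposite sign (0.63, SE 0.23, adjusted p = 0.206, limma). Of the 23, the single higher one was Gm9625, at 17.16, 17.03 and 17.17 in HH and at the floor in CC_l, with a difference of 2.79 (adjusted p = 0.0013, limma) between H and C. Between HH and CC_l it differed by 2.42 with maximum signal, and by 1.71 with the share of the peak, where it did not pass the nominal threshold. The region over it differed by 0.31 (SE 0.19). The coding genes Cabp4, Tex33 and Actl11 had no signal above the floor in HH, and Necab2, Gps1 and Rfng had levels from 14.19 to 14.80 there. The last 2 are neighbours under the same peak.

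Lists of genes for 12 adipocyte functions were counted at promoters and at distal regions within 20000 bp, beside the medians over all promoters (0.00) and all distal regions (-0.01). Over all promoters 0.829% passed the nominal threshold higher and 1.05% lower, and over all distal regions 1.55% and 1.59%. Against these shares, 1 or 2 members past the threshold are given as a description of a list. Some list members named below passed at a promoter or distal region with total signal in all 5 libraries. Of these, only Cfd (-1.38) and Ccn1 (1.03) also passed with maximum signal. With total signal in all 5 libraries the actin cytoskeleton and caveolae list had the highest promoter and distal medians of the 12 lists. Of its 24 promoters 22 had a difference above 0, with a median of 0.49, and 1 passed the nominal threshold (Pdlim1, 16.57, 16.10 and 16.47 in HH against 15.10 and 14.92, difference 1.37, SE 0.26, adjusted p = 0.301, limma). Of its 20 distal regions 16 were above 0, with a median of 0.51, and 2 passed, both higher (Pdlim1, above, and Actn1, which encodes an actinin, 17.95, 17.10 and 17.02 against 16.17 and 14.99, 1.77, SE 0.44, adjusted p = 0.191). Without HH 1 the promoter median was 0.24 with 18 of 24 above 0, and the distal median was 0.80. Actn1 then had a difference of 1.48 and no longer passed, while 2 promoters (Pdlim1, and Tpm1 with 1.14) and 3 distal regions did, all higher. Over all promoters 446 of 20186 passed higher without HH 1, and over all regions, distal or not, 2.98%. With maximum signal the medians were 0.15 and 0.27 and no member passed. The distal medians of lipogenesis (0.29 over 8 regions) and adipocyte identity (0.28 over 3) then stood higher. With median centring 7 distal regions passed, all higher, with a median of 0.83 against 0.18 over all distal regions. Over all regions, distal or not, 1292 of 37388 passed higher with median centring. The list shares Acta2 with the pericyte and smooth muscle markers, whose mean promoter level also ran higher in HH (14.99 to 15.49) than in CC_l (14.87 to 14.97). Of the 5 of these markers that were tested 4 had a difference above 0, while Myh11 was lower in HH (-0.67, SE 0.25). Acta2 stood at 18.87 in HH 3 but at 15.71 and 14.84 in HH 1 and HH 2. The region over the Acta2 promoter passed the nominal threshold (1.49, SE 0.35, adjusted p = 0.186, limma). The part of these markers in the medians was not tested. Actn1 differed at 12 weeks too (2.18, adjusted p = 0.00523, limma).

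The list of TGFβ, AP-1 and mesenchymal regulators had a promoter median of 0.26 (18 of 26 above 0) and a distal median of 0.12. Its sign at promoters turned with maximum signal (-0.02), and without HH 1 it was 0.13. Ccn1, a matrix-bound growth regulator, was the 1 promoter past the threshold at 19.12, 18.13 and 19.32 in HH against 16.71 and 17.07 in CC_l (difference 1.97, SE 0.43, adjusted p = 0.371, limma), which without HH 1 was 1.83 and did not pass, while the promoter of Tgfb1, a TGFβ ligand gene, then passed lower (-1.30). At 12 weeks Ccn1 differed by 2.38 (adjusted p = 0.00926, limma). At distal regions 2 intronic regions of Smad3, a TGFβ signal transducer, were higher (1.09 and 1.08, SE 0.23 and 0.27), which was not seen at 12 weeks (0.04 and -1.22, adjusted p = 0.938 and 0.0847). A region that overlaps Ttll5 and Tgfb3, a TGFβ ligand gene, was lower (14.52, 14.69 and 14.12 against 15.88 and 16.05, -1.53, SE 0.34). Without HH 1 the Smad3 differences were 0.98 and 0.91, with maximum signal they were 0.02 and 0.46, and neither passed in those fits, although 2 other regions linked to the list passed higher without HH 1. The Tgfb3 region had -0.91 with maximum signal and did not pass.

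Extracellular matrix genes had a promoter median of 0.22 with 15 of 25 above 0, which was 0.08 over 23 promoters without HH 1 and turned to -0.08 with maximum signal, and a distal median of -0.06. Col12a1, a fibril-associated collagen, was the only member past the threshold (17.65, 17.32 and 17.63 against 16.51 and 16.16, difference 1.20, SE 0.27, adjusted p = 0.375, limma), and without HH 1 it did not pass (1.14). With maximum signal the matrix gene Thbs2 passed in its place (1.29).

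Adipocyte identity genes were balanced, with 12 of 24 promoters above 0 and a median of -0.03 (-0.20 with maximum signal). A region linked to the member Ghr passed lower (-1.37) but is not among the distal regions counted. At promoters Cfd was the 1 lower member and Acsl1, which activates fatty acids, the 1 higher, at 21.07, 21.71 and 21.67 in HH and at 20.10 and 20.35 in CC_l (difference 1.26, SE 0.27, adjusted p = 0.356, limma). The maximum signal of Acsl1 differed by -0.13. Without HH 1 Pparg, the master regulator of adipocytes, passed as well (19.25, 20.58 and 20.43 in HH against 19.20 and 18.70, a difference of 1.55 without HH 1), but had 0.12 with maximum signal and -0.12 with the share of the peak. Lipogenesis genes had a median of -0.03 with 10 of 24 above 0. Insig1, which retains the sterol sensor in the endoplasmic reticulum, passed (19.31, 18.52 and 19.21 against 17.57 and 17.40, 1.53, SE 0.33, adjusted p = 0.360), but did not pass without HH 1 and had a value of -0.37 with the share of the peak. A distal region of Elovl6, an elongase of fatty acids, also passed (15.59, 15.75 and 14.99 against 14.08 and 14.07, 1.37, SE 0.36, adjusted p = 0.208, limma), and did not pass without HH 1. At 12 weeks this region had the opposite sign (-0.82, SE 0.42, adjusted p = 0.198, limma). With maximum signal it differed by 0.71, and another distal region of the list passed higher. With median centring 1 promoter and 2 distal regions of the list passed, all higher. Insulin signalling genes had a median of 0.13 with 14 of 24 above 0 (-0.05 with maximum signal). Pik3r1, the regulatory subunit of the insulin-responsive phosphoinositide kinase, was lower (19.44, 20.43 and 19.54 against 21.37 and 21.07, -1.42, SE 0.36, adjusted p = 0.455, limma), again not without HH 1. In that fit 2 promoters of the list, among them Akt2, a kinase of this pathway (1.40), and 1 distal region passed higher. With maximum signal 1 distal region of the list passed lower.

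In branched-chain amino acid catabolism 4 of 16 promoters were above 0 with a median of -0.16, and Bckdk, the kinase that turns that pathway off, was lower (14.72, 14.53 and 14.62 against 15.81 and 17.28, -1.92, SE 0.46, adjusted p = 0.421, limma), but did not pass without HH 1. No member of 4 lists passed at a promoter or a distal region with total signal in all 5 libraries. They were lipolysis and fatty acid oxidation (median 0.15 over 24 promoters, but -0.07 with maximum signal), the thermogenic programme (-0.14 over 14, and 0.00 without HH 1), inflammatory signalling (0.14 over 25, and 0.01 without HH 1) and the lysosome and lipid-associated macrophage genes (0.13 over 18). For hypoxia and angiogenic factors the promoter median was 0.04 over 12 (-0.17 without HH 1 and -0.05 with maximum signal), and 1 distal region near Epas1, a hypoxia-inducible factor, was higher (17.31, 16.64 and 16.65 against 15.60 and 15.34, 1.40, SE 0.28, adjusted p = 0.170, limma) but differed by 0.15 with maximum signal. Without HH 1 the inflammatory and lysosome lists had 1 higher distal region each, with maximum signal the lysosome list had 2 lower ones, and with median centring the thermogenic and lysosome lists had 1 higher each. The distal median of the inflammatory list turned from -0.15 to 0.13 without HH 1. As examples, Pnpla2 and Lipe, the lipases of triglyceride and diglyceride, had differences of -0.49 and 0.29 (SE 0.24 and 0.23). Ppargc1a, a coactivator of mitochondrial genes, had -0.56 (SE 0.36), and Ucp1 was not tested as only HH 1 was above the floor (14.22). The chemokines Ccl2 and Ccl7 had 0.00 and 0.49 (SE 0.34 and 0.71), and the cathepsins Ctsd and Ctsb 0.23 and -0.58 (SE 0.35 and 0.38). With 5 libraries a p above the threshold does not show that these promoters were alike on the 2 diets.

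Of the genes followed by name, none of the promoters passed the nominal threshold. Adipoq, the adiponectin gene, was at 18.24, 21.84 and 21.84 in HH and at 21.89 and 21.93 in CC_l, so that HH 1 alone set the difference of -1.27 (SE 1.17), which was -0.07 without it. Cyp2e1, a cytochrome of fatty acid and solvent metabolism, was at 17.77, 17.60 and 18.22 in HH and at 19.19 and 18.57 in CC_l (-1.02, SE 0.33, adjusted p = 0.606, limma). The region over the Cyp2e1 promoter passed the nominal threshold (-1.12, SE 0.21, adjusted p = 0.162). Acacb, which makes malonyl-CoA at mitochondria, was at 19.33, 19.31 and 19.10 against 20.02 ± 0.03 (SD, n = 2) in CC_l (-0.78, SE 0.21, adjusted p = 0.496, limma). The groups did not overlap at Adipoq, Cyp2e1 and Acacb, as in 23.6% of all promoters tested. They overlapped at Gpam (-0.15, SE 0.33), which starts triglyceride synthesis, at Maob (-0.37, SE 0.30), a monoamine oxidase gene, at Ctsd (0.23, SE 0.35) and at Runx2 (0.66, SE 0.73), a mesenchymal transcription factor gene. Icam1 was above the promoter floor in HH 1 alone (15.91), and the myeloid genes Lyz2 and Tyrobp were at the floor in all 5 libraries.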

How the data were processed

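The labels state that reads were trimmed with Trim Galore 0.6.6 and aligned to mm10 (GRCm38) with Bowtie2 2.4.4, with SAMtools 1.13 and bedtools 2.30 for coverage. The authors ran SEACR 1.3 (stringent, threshold 0.01) separately for every library, with no pooling of replicates. Each deposited list gives 2 values per peak in the unit signal, the total and the maximum coverage, for which no normalization is stated. Without read counts the depth of a library is unknown. A removal of blacklisted peaks is stated, but not whether it precedes these lists.

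Mitochondrial peaks, 1 a library, were left out. Peaks overlapping by 1 bp or more were merged over 22 libraries into 104657 regions, and their summed totals were rank-mapped over 30083 ranks. Promoters were taken from the GENCODE vM21 basic annotation, 2000 bp on each side of start sites (floor 14.19 over 19432 ranks). limma 3.58.1 (R 4.3.3; lmFit, eBayes with trend) was fitted on the 5 libraries, or on H and C, with Benjamini–Hochberg adjustment. The interaction was fitted over the 4 groups. The study's methods use edgeR on read counts, which was not possible with signal. Python 3.11.15, numpy 2.4.6 and pandas 2.3.3 were used for the rest. The code was tested on simulated data.

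Named regions were the 10 of smallest p in each direction with a peak in all 5 libraries, past the nominal threshold with and without HH 1, and the 6 strongest called in 1 group only. One of the higher regions by this rule is not reported here. Named promoters were the 8 protein-coding ones of smallest p by the same rule, list members past the threshold (for a list with none, its first 2 members) and 10 genes chosen by name. A distal region was linked to the nearest coding gene within 20000 bp. Comparisons, members, lists and motifs were chosen with earlier results of these data known. Alternatives changed the signal, peak list, regions, call, scaling, filter, model and libraries. Replicates are single animals.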

Additional observations from a re-analysis of the deposited data

How the results depend on the processing

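Regions past the adjusted threshold stayed at 0 in every alternative except 3 that gave 156 (replicate block), 128 (median centring) and 3 (a call needing peaks over 50% of the region). Only numbers 1 and 2 are shared by both groups, and deviations of same-numbered libraries correlated at 0.093 and 0.063. The deviations of 2 CC_l libraries mirror each other, so these values cannot decide whether the numbers pair animals. The replicate block gave 91 higher promoters and 0 promoters past the adjusted threshold. Higher regions numbered 292 with maximum signal, 129 with the 20000 strongest peaks, 1292 with median centring and 12 with the 50% call. Lower regions numbered 142 and 65 with the strongest peaks and the 50% call, 283 without the filter and 231 with a peak in all 5 libraries. Higher promoters numbered 97 with maximum signal and 72 with the strongest peaks. Lower promoters numbered 137 with a peak in all 5 libraries, 132 when 4 groups of the long-term arm were fitted together and 139 with the share of the peak inside the promoter. Promoters past the adjusted threshold numbered 5, 14, 0, 6 and 0 with maximum signal, the strongest peaks, a peak in all 5 libraries, the 4 groups and the share of the peak. Regions called only in HH numbered 389 and 395, and those only in CC_l 561 and 952, with the strongest peaks and the 50% call, and the latter 2261 with the union of 5 libraries. The cause was not tested for any of these.

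Leaving out 1 library gave 157 to 954 higher and 202 to 587 lower regions, 49 to 446 higher and 125 to 319 lower promoters, and 0 to 50 promoters past the adjusted threshold. It gave 1389 to 2561 regions called only in HH, and 2068 to 4121 only in CC_l. The most higher regions and promoters, and the 50 adjusted promoters, came without HH 1, and the fewest higher ones without CC_l 1. Where 1 CC_l library remained, it was assumed to vary like HH. Among named values past the nominal threshold, direction turned for the region near Tbc1d19 (-0.04) and the promoter of Acsl1 (-0.13) with maximum signal, and for the promoters of Pmepa1 (-0.01) and Insig1 (-0.37) with the share of the peak. Differences not past it turned as well, such as Ctsd (-0.38), Runx2 (-0.12) and Lipe (-0.04) with maximum signal. With maximum signal 28 of the 53 named regions and promoters past the nominal threshold lost it. Depth is unknown, and breadth of peaks may follow it.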
